A study of Mus musculus with 2 samples.

Results

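The FGF and ERK feedback genes are a set of 10 genes, chosen by name in the deposited count table: the phosphatase genes Dusp1, Dusp4 and Dusp6, the inhibitor genes Spry1, Spry2, Spry4 and Spred1, and the transcription factor genes Etv1, Etv4 and Etv5. All 10 were found, each as a single row, among the 15643 genes listed in the table. RNA sequencing was run on GFP-positive cells sorted from the cortex of CD-1 mouse embryos, whose mothers were made hypothermic, to ask how the cold-induced RNA-binding protein RBM3 acts in cortical development. In the Rbm3 knockdown group, embryos received an RBM3 knockdown plasmid by in utero electroporation at embryonic day 13, the dams were cooled at day 14, and GFP-positive cells were sorted at day 15. The control group received a control plasmid and the same cooling and sorting at the same days, so both groups were hypothermic and no uncooled group is included here. The labels call the sorted cells neural stem cells. Neither the promoter that drives the plasmids nor the number of embryos pooled is given in the sources used here.

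Fibroblast growth factors bind receptor tyrosine kinases and activate Ras, the kinases Raf and MEK, and finally the kinase ERK. ERK signalling switches on genes that act back on the cascade: dual-specificity phosphatases remove the activating phosphates from MAP kinases, Sprouty and Spred proteins inhibit signalling between the receptor and Raf, and the ETS factors Etv1, Etv4 and Etv5 carry the signal to target genes. In the developing cortex this pathway is known for patterning the tissue from front to back and for keeping radial glia, the stem cells of the cortex, in a dividing state.

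Each group had 1 library, so the values below compare 2 libraries and carry no measure of the spread between embryos, litters or sorts, and no replicate test is possible. Reads over listed genes numbered 16823612 in the knockdown library and 17757555 in the control library. The targeted gene, Rbm3, had 148 CPM (reads scaled to a common library size by the TMM method) in the knockdown library and 176 CPM in the control library, a ratio of 0.841 (95% counting interval 0.798 to 0.887). The knockdown library is therefore named by its label. Intervals throughout are exact (Clopper-Pearson for ratios, Poisson for levels), cover counting error only, and are too narrow where PCR copies were counted as separate reads. In such bulk samples fewer cells of a type and less RNA per cell cannot be told apart.

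The promoters of Dusp1, Dusp6 and Spry2 are shown because they contrast the member with the highest ratio between the libraries, another phosphatase gene, and an inhibitor gene that differed little. Each runs from 250 bases before to 50 bases after a transcription start in RefSeq (GRCm38.p6), and Dusp1 lies at chr17:26508423-26508722 on the minus strand, Dusp6 at chr10:99262981-99263280 on the plus strand and Spry2 at chr14:105896770-105897069 on the minus strand. Capitals mark matches to the motifs searched.
Dusp1: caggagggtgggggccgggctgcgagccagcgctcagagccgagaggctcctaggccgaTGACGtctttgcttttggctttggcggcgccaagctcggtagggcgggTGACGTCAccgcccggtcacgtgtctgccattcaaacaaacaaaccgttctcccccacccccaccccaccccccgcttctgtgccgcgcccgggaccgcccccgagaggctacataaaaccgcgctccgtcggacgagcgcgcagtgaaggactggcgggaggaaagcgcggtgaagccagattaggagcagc
Dusp6: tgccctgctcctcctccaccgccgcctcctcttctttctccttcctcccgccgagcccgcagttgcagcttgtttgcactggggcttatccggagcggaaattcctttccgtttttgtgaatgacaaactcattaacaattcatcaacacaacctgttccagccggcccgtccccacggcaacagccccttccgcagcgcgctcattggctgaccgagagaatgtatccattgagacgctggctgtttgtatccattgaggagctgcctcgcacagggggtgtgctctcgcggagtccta
Spry2: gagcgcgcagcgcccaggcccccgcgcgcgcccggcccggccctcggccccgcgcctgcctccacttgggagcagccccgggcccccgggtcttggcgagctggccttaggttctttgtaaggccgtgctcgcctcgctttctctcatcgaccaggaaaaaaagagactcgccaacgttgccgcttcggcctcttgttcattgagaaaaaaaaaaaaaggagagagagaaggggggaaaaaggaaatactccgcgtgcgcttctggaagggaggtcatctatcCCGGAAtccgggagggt

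Both strands were searched for the motifs AP-1 (TGANTCA), the cyclic AMP response element CRE (TGACGTCA) and its core TGACG. The CArG box of the serum response factor and an extended ETS motif, CCGGAA, called the ETS core below, were also searched. Shorter GGAA sites were not searched. The CRE core also lies within each full CRE. The Dusp1 promoter held a full CRE, from base -143 to -136 relative to the start, and a further core from -191 to -187. The Spry2 promoter held an ETS core from base 33 to 38 after the start, and the Dusp6 promoter matched none of these motifs. Promoters of 7 members were matched by symbol, and those of Spry1, Spred1, Etv1 and Etv5 held none of these matches in this window. A full CRE was present in 1.79% of 32851 promoters of the same length, its core in 20.8%, the ETS core in 14.9%, the AP-1 motif in 7.81% and the CArG box in 1.63%. These matches describe letters in a window of 300 bases and not bound sites.

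All 3 phosphatase genes had higher levels in the knockdown library, whereas the Sprouty, Spred1 and Etv genes lay close to the control library or below it. Of the 10 members, Dusp1 was the 1 past 2-fold higher, and 0 were past 2-fold lower. For comparison, 2.13% of the 12140 measured genes (a mean of at least 5 CPM) were past 2-fold higher and 4.51% past 2-fold lower (259 and 547 genes). With plain library totals in place of TMM these counts were 187 higher and 693 lower. The median log2 ratio of knockdown over control was 0.12 over the members and 0.03 over all measured genes. A log2 ratio above 0 was found for 8 members, and for 53.1% of measured genes, although Spry1, Etv1 and Etv5 among them had values just below 0 with plain library totals. That scaling shifted the median of all measured genes by -0.11. The phosphatase genes summed to 319 CPM in the knockdown library and 142 CPM in the control library, 2.25-fold higher (2.14 to 2.36). The Sprouty and Spred1 genes summed to 127 CPM in the knockdown library and 110 CPM in the control library, 1.15-fold higher (1.08 to 1.22), and the Etv genes to 61.7 CPM in the knockdown library and 61.6 CPM in the control library, a ratio of 1.00 (0.920 to 1.09).

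**Figure D1:**
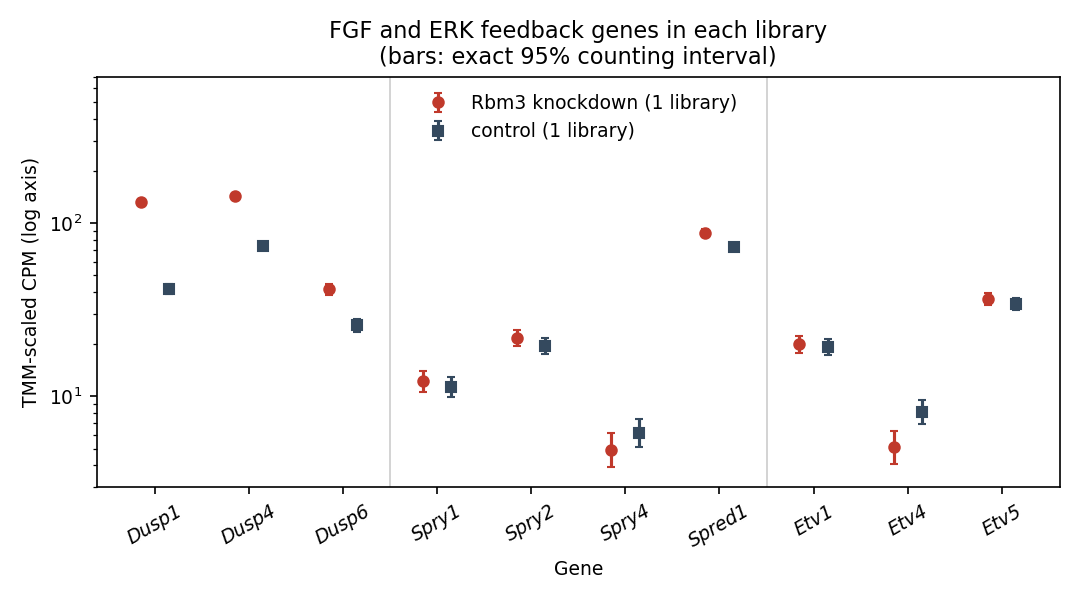
Level of each feedback gene in TMM-scaled CPM on a log axis, in the Rbm3 knockdown library (circles) and the control library (squares), with exact 95% Poisson counting intervals. The intervals of Dusp1, Dusp4, Dusp6 and Spred1 lie higher in the knockdown library, that of Etv4 lies lower there, and those of Spry1, Spry2, Spry4, Etv1 and Etv5 overlap between the libraries.

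Dusp1 encodes a nuclear phosphatase that switches off p38, JNK and ERK and is itself rapidly induced by growth factors and stress. It had 2156 reads (133 CPM) in the knockdown library and 770 reads (41.8 CPM) in the control library. This was 3.19-fold higher (2.93 to 3.46), a log2 ratio of 1.66. By ratio it ranked 47 from the top among the 12140 measured genes. In the authors' deposited table Dusp1 had a log2 fold change of 1.67, a p-value of 0.0131 and an adjusted p-value (FDR) of 0.289. It thus met the authors' stated limits, p below 0.05 with a log2 change beyond 1 in either direction, in a table where 7.87% of listed genes did so. No other member met them in the authors' deposited table, where the other p-values ranged upward from 0.14997 for Dusp4. With 1 library per group, those p-values rest on no measured spread between replicates.

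Dusp4 encodes a related nuclear phosphatase that acts on ERK and JNK. It had 2331 reads (144 CPM) in the knockdown library and 1371 reads (74.4 CPM) in the control library, 1.93-fold higher (1.81 to 2.07). Its log2 ratio of 0.95 lay just inside the 2-fold line, and it crossed that line, at 1.03, when ratios were corrected for transcript length. Dusp6 encodes a cytoplasmic phosphatase selective for ERK, and its transcript is a widely used readout of FGF signalling. It had 674 reads (41.6 CPM) in the knockdown library and 474 reads (25.7 CPM) in the control library, 1.62-fold higher (1.44 to 1.82). Ratios above those of Dusp4 and Dusp6 were found in 2.47% and 6.22% of measured genes.

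Sprouty genes encode inhibitors of receptor tyrosine kinase signalling. Spry1 had 198 reads (12.2 CPM) in the knockdown library and 210 reads (11.4 CPM) in the control library, a ratio of 1.07 (0.879 to 1.31). Spry2, whose product binds the adaptor GRB2 and the ubiquitin ligase CBL, had 351 reads (21.7 CPM) in the knockdown library and 362 reads (19.6 CPM) in the control library, a ratio of 1.10 (0.950 to 1.28). Counting intervals of both ratios include 1. At this depth a difference of the size seen for Dusp6 lies outside both intervals. Spry4, the least abundant member, had 80 reads (4.94 CPM) in the knockdown library and 114 reads (6.18 CPM) in the control library, a ratio of 0.799 (0.592 to 1.07). Its interval also includes 1, so its log2 ratio of -0.30 was not distinguishable from 0 at this depth, and the interval reaches as far as 1.69-fold lower. The Spry1 transcript shares 710 exonic bases with Gm42922 on the opposite strand in GENCODE M21, and whether counting used strand is not given in the sources used here.

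Spred1 encodes a membrane protein that brings neurofibromin, an inactivator of Ras, to the membrane. It had 1421 reads (87.7 CPM) in the knockdown library and 1348 reads (73.1 CPM) in the control library, 1.20-fold higher (1.11 to 1.29). Its interval excludes 1, yet 29.5% of measured genes had a ratio above that of Spred1. Its log2 ratio of 0.26 lay within the interquartile range of all measured genes, which ran from -0.30 to 0.32. The log2 ratio of Spred1 was 0.15 with plain library totals and 0.14 with the correction for transcript length.

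**Figure D2:**
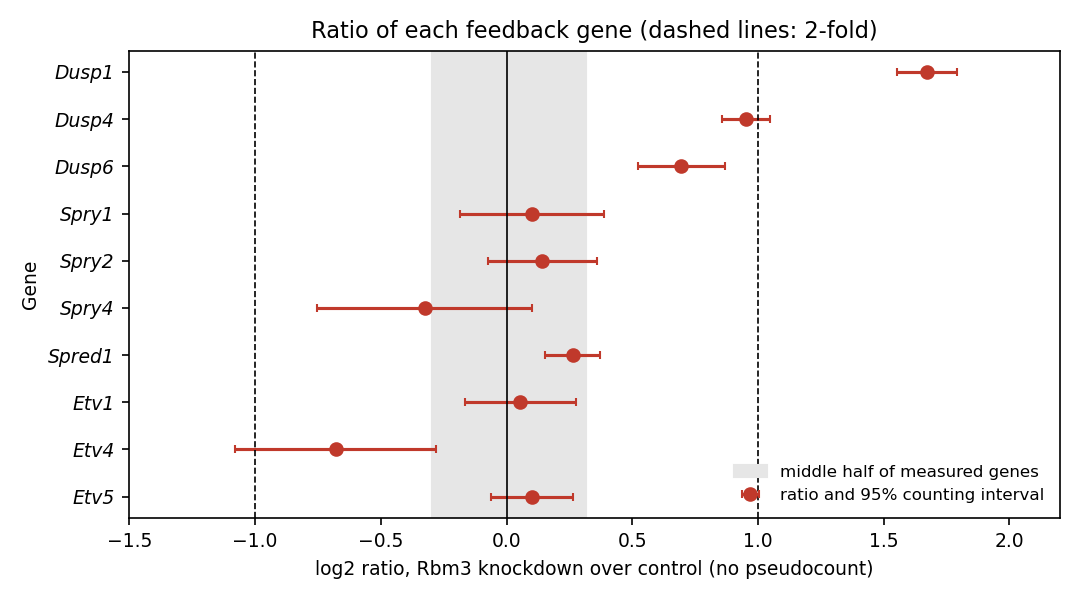
Log2 ratio of knockdown over control for each feedback gene, without a pseudocount, with exact 95% counting intervals. The grey band is the interquartile range of all measured genes (-0.30 to 0.32) and the dashed lines mark 2-fold. Dusp1, Dusp4 and Dusp6 lie right of the band, Etv4 lies left of it, and Spry4 lies at its left edge with an interval that includes 0.

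The Etv genes, which encode the PEA3 group of ETS factors, went apart. Etv1, known as a marker of projection neurons of the deep cortex, had 324 reads (20.0 CPM) in the knockdown library and 355 reads (19.3 CPM) in the control library, a ratio of 1.04 (0.891 to 1.21). Etv5, expressed in cortical radial glia, had 593 reads (36.6 CPM) in the knockdown library and 629 reads (34.1 CPM) in the control library, a ratio of 1.07 (0.957 to 1.20). Both intervals include 1. Etv4, which is induced near FGF sources in the embryo, had 83 reads (5.12 CPM) in the knockdown library and 151 reads (8.19 CPM) in the control library. It was 1.60-fold lower (1.22 to 2.12), a log2 ratio of -0.63, and 11.1% of measured genes had a ratio below it. Etv4 was the member with the lowest ratio, the opposite direction to the 3 phosphatase genes.

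At a 1.5-fold line Dusp1, Dusp4 and Dusp6 were past it higher and Etv4 past it lower, where 9.13% of measured genes were past 1.5-fold higher and 12.4% lower. The other 6 members lay within 1.5-fold. Since so large a share of all genes lies past this line, Dusp6 and Etv4 differed by amounts that many other genes also showed between these libraries.

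**Figure D3:**
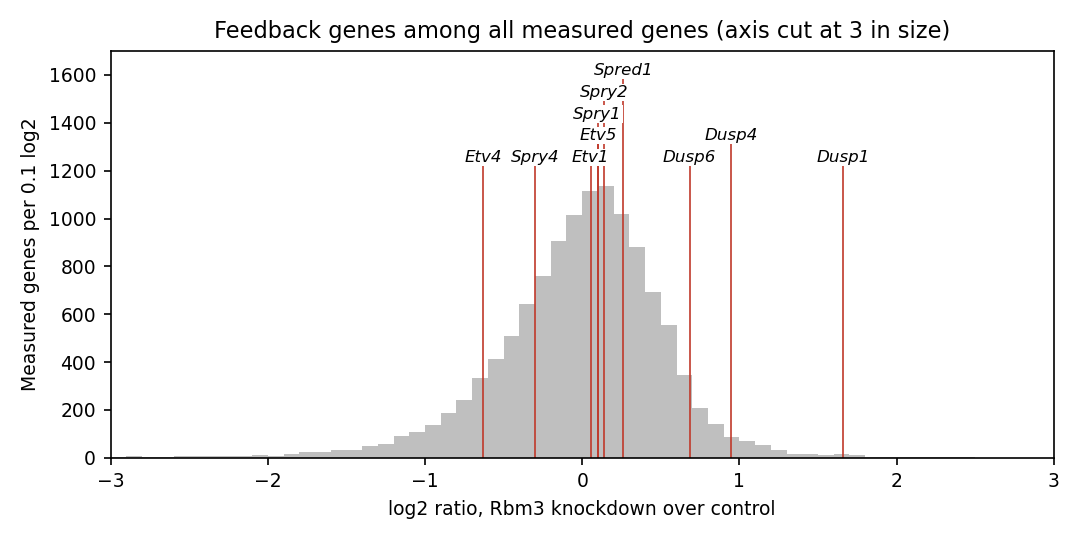
Number of measured genes per 0.1 of log2 ratio of knockdown over control (grey bars, axis limited to 3 in size), with a red line at each feedback gene. Dusp1 stands in the sparse upper tail at 1.66, and Etv1, Etv5, Spry1 and Spry2 stand at the centre of the distribution.

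Levels can be compared between genes only per transcript length, for which the authors' deposited RPKM values (reads per kilobase, scaled to library depth but not by TMM) were used. In the knockdown library Dusp4 was the most abundant member at 50.5 RPKM (48.5 to 52.6), followed by Dusp1 at 47.5 RPKM (45.5 to 49.5), and their counting intervals overlapped. Dusp6 followed at 14.3 RPKM, Spred1 at 12.4, Spry2 at 9.996 and Etv5 at 8.58 RPKM. Spry1 had 4.05 RPKM there, Etv1 3.27, Etv4 1.59 and Spry4 1.04 RPKM. Overlapping neighbours in the knockdown library were also Spry2 with Etv5, Spry1 with Etv1, and Etv4 with Spry4.

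In the control library Dusp4 again led, at 28.1 RPKM (26.7 to 29.7), and Dusp1 followed at 16.1 RPKM (14.9 to 17.2) with no overlap between them. Spred1 came next at 11.2 RPKM, then Spry2 at 9.76, Dusp6 at 9.53 and Etv5 at 8.62 RPKM, neighbours whose intervals overlapped. Spry1 had 4.06 RPKM there, Etv1 3.39, Etv4 2.74 and Spry4 1.40 RPKM, with overlap of Spry1 with Etv1 and of Etv1 with Etv4. The order of the members was thus alike in both libraries except that Dusp6 stood above Spred1 and Spry2 in the knockdown library and below them in the control library. Summed over the members, the level was 153 RPKM in the knockdown library and 94.9 RPKM in the control library, of which the phosphatase genes made 112 RPKM in the knockdown library and 53.7 RPKM in the control library.

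Since no source used here gives the build of the table, positions come from GENCODE M21 (GRCm38), matched on gene ID, and refer to principal transcripts. Dusp1 (ENSMUSG00000024190.6) lies on chromosome 17 from 26505590 to 26508519 on the minus strand, with 4 exons over 2.93 kb. Dusp4 (ENSMUSG00000031530.6) lies on chromosome 8 from 34807297 to 34819894, with 4 exons, and Dusp6 (ENSMUSG00000019960.7) on chromosome 10 from 99263231 to 99267488, with 3. Spry1 (chromosome 3, 37639947 to 37644598), Spry2 (chromosome 14, 105891947 to 105896819) and Spry4 (chromosome 18, 38586247 to 38601415) have 2 exons, or 3 in some principal transcripts of Spry1. Spred1 (chromosome 2, 117121374 to 117182279) has 7 exons over 60.9 kb. Etv1 (chromosome 12, 38780082 to 38870484), Etv4 (chromosome 11, 101769742 to 101785310) and Etv5 (chromosome 16, 22381309 to 22439719) have 13 exons, or 14 in some principal transcripts of Etv1.

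Of 22 FGF family genes, whose secreted products act upstream of the feedback genes, 11 were in the table and 5 were measured, of which 0 were higher past 2-fold and 1, Fgf12, was lower. Fgf12 had 7.65 CPM in the knockdown library and 18.2 CPM in the control library, a log2 ratio of -1.20. Fgf12, like the measured Fgf11, Fgf13 and Fgf14, encodes an intracellular protein that binds sodium channels and is not secreted. Fgf15, the measured gene for a secreted ligand, had 11.5 CPM in the knockdown library and 8.79 CPM in the control library, a log2 ratio of 0.37. Secreted ligand genes below the 5 CPM minimum went both ways. Fgf3 was 3.08-fold higher (1.73 to 5.73) and Fgf20 2.11-fold higher (1.37 to 3.30) in the knockdown library. Fgf9 had a ratio of 0.552 (0.384 to 0.784) and Fgf17 one of 0.527 (0.289 to 0.929). The intervals of Fgf7 and Fgf18 included 1.

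Among 5 measured FGF receptor genes, 0 passed 2-fold in either direction. Fgfr1, the most abundant per length, had 221 CPM in the knockdown library and 145 CPM in the control library, a log2 ratio of 0.60. Fgfr3, a receptor of cortical progenitors, had 71.5 CPM in the knockdown library and 89.8 CPM in the control library, a log2 ratio of -0.33, and Fgfr2 had a log2 ratio of -0.01. Receptor genes therefore went both ways within 2-fold. Of 10 measured other receptor tyrosine kinase genes 1 was lower past 2-fold, Pdgfra at a log2 ratio of -1.22, and 0 were higher.

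Between receptor and ERK, adaptor and Ras activator genes had 0 of 10 past 2-fold and a median log2 ratio of 0.23. Grb2, the most abundant of them per length and the adaptor that links receptors to Ras activation, had a log2 ratio of -0.02. Shc1 had the lowest ratio of the 10, 1.97-fold lower (1.71 to 2.28), a log2 ratio of -0.96. It was past 2-fold lower with column totals, with upper-quartile factors and with the length correction. Genes for Ras, Raf, MEK, ERK and the downstream kinase RSK had 1 of 15 lower, Rras at -1.05, 0 higher, and a median of 0.18. Rras had 59 reads in the knockdown library and 149 in the control library, near the 5 CPM minimum. The number of these genes called lower ran from 0 to 2 under 12 alternative settings. Mapk3, the most abundant of this list per length, had 115 CPM in the knockdown library and 163 CPM in the control library, a log2 ratio of -0.50. Genes for GTPase activators that switch off Ras had 0 of 6 past 2-fold and a median of 0.02.

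Among other measured inhibitors of the same families, 0 passed 2-fold. The 4 measured MAP kinase phosphatase genes beyond the members had a median log2 ratio of 0.21. Dusp8, the most abundant of these per length, had 204 CPM in the knockdown library and 185 CPM in the control library, a log2 ratio of 0.14. Of these 4, 3 had a log2 ratio above 0 and 1, Dusp7, had -0.45, a ratio of 0.728 (0.635 to 0.833). Dusp5, an ERK-specific nuclear phosphatase gene below the 5 CPM minimum, had 76 reads in the knockdown library and 25 in the control library, 3.46-fold higher (2.18 to 5.67). Dusp2, also below that minimum, had 53 reads in the knockdown library and 65 in the control library, a ratio of 0.928 (0.633 to 1.35). The 5 further feedback inhibitor genes had a median of -0.06. Spred2, the paralog of Spred1, had a log2 ratio of 0.70, and Il17rd, a membrane inhibitor of FGF receptors known to be expressed alongside Fgf8 in fish and mouse embryos, had one of -0.06. Other ETS factor genes had 0 of 9 past 2-fold and a median of -0.08, with 4 above 0 and 5 below. Gabpa, the most abundant of them per length, had a log2 ratio of 0.34. Ets2 had one of -0.79, Ets1 of -0.67 and Erf of -0.64. At the 1.5-fold line 3 of the 9 were lower and 0 higher, where 12.4% of measured genes were lower and 9.13% higher.

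Early response and growth-related genes that ERK and other stimuli induce stood apart from the rest of the pathway. Of 12 measured, 6 were higher past 2-fold and 0 lower, with a median log2 ratio of 1.24. Fosb was 102-fold higher (66.7 to 166), Fos 57.2-fold (45.9 to 72.1), Egr1 24.6-fold (21.3 to 28.6) and Junb 4.35-fold higher (3.65 to 5.20). The ratio of Dusp1, 3.19 (2.93 to 3.46), lay between those of Ier2 at 3.71 (3.32 to 4.15) and Jun at 3.004 (2.84 to 3.18). The interval of Dusp1 overlaps both, while those of Ier2 and Jun do not overlap each other. Overlap alone does not settle the place of Dusp1 between them, which was not tested. The other 6 measured genes of the list lay within 2-fold, from Ier5 at 1.87 (1.77 to 1.97) down to Fosl2 at 0.648 (0.558 to 0.751). Ccnd1 and Myc, growth-related targets of ERK signalling, had log2 ratios of -0.21 and -0.41. The part of these early genes in the values of the phosphatase genes was not tested.

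**Figure D4:**
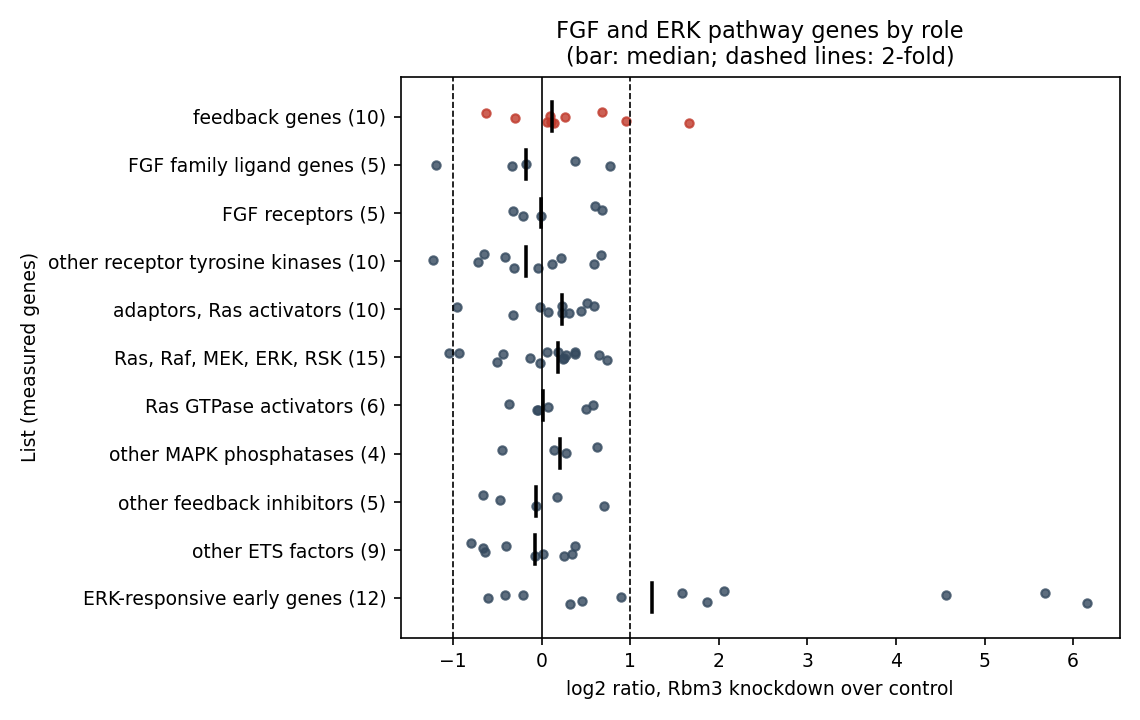
Log2 ratio of knockdown over control for each measured gene, by role in the FGF and ERK pathway, with the feedback genes in red, the median of each list as a bar, and dashed lines at 2-fold. Beyond the feedback genes, ratios past 2-fold higher are found in the early gene list, whose median is 1.24, and the other list medians lie between -0.18 and 0.23.

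Marker genes of the neural cell types in the sort also differed between the libraries. Radial glia markers summed to 1641 CPM in the knockdown library and 2576 CPM in the control library, with 3 of 13 lower and 0 higher past 2-fold. Intermediate progenitor markers summed to 1079 CPM in the knockdown library and 604 CPM in the control library, with 3 of 7 higher, and neuron markers to 7830 CPM in the knockdown library and 6019 CPM in the control library, with 3 of 10 higher. Among the most abundant of each list, Fabp7 had a log2 ratio of -1.61, Vim -0.58, Insm1 1.60, Neurog2 -0.01 and Stmn2 -0.73. Radial glia markers were all detected in both libraries. Tubb3, a tubulin gene of neurons, had 1067 RPKM in the knockdown library and 1152 RPKM in the control library, above the radial glia gene Fabp7 at 170 RPKM in the knockdown library and 560 RPKM in the control library, although the labels call the cells neural stem cells. The part of these neural markers in the values of the members was not tested.

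Summed markers of other cell types were lower in the knockdown library for 6 of 7 lists. Meningeal fibroblast markers summed to 88.6 CPM in the knockdown library and 1002 CPM in the control library, with 8 of 8 lower, and choroid plexus markers to 20.4 CPM in the knockdown library and 647 CPM in the control library, with 4 of 5 measured lower. Endothelial markers summed to 125 CPM in the knockdown library and 329 CPM in the control library, with 7 of 8 lower. Mural markers summed to 84.1 CPM in the knockdown library and 154 CPM in the control library, with 2 of 6 lower. Erythroid markers summed to 65.7 CPM in the knockdown library and 300.4 CPM in the control library, with 5 of 5 measured lower. Microglia and macrophage markers differed less in sum, at 150 CPM in the knockdown library and 128 CPM in the control library, with 2 higher and 1 lower of 7 measured. The lower one was Mrc1, with 89 reads in the knockdown library and 532 in the control library, a log2 ratio of -2.29. Oligodendrocyte precursor markers summed to 82.2 CPM in the knockdown library and 96.1 CPM in the control library, with 1 of 5 lower. The most abundant of these markers had log2 ratios of -3.20 (Igf2) and -3.78 (Col3a1) for meninges, -9.25 (Ttr) and -0.67 (Otx2) for choroid plexus, -1.16 (Cldn5) and -1.68 (Cdh5) for endothelium, and -2.22 (Vtn) and -0.54 (Rgs5) for mural cells. For the other lists they were -2.04 (Hbb-bs) and -2.07 (Hbb-y), whose near-identical globin relatives can share reads, 1.83 (Lyz2) and 0.47 (C1qa) for microglia and macrophages, and 0.23 for both Olig1 and Olig2. No marker on these lists had 0 reads in either library. Within the lists with lower sums, 3 of 5 oligodendrocyte precursor markers and 2 of 6 mural markers had log2 ratios above 0. The 6 lower sums share the direction of Etv4 and are opposite to the phosphatase genes, and their part in the values of the members was not tested.

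**Figure D5:**
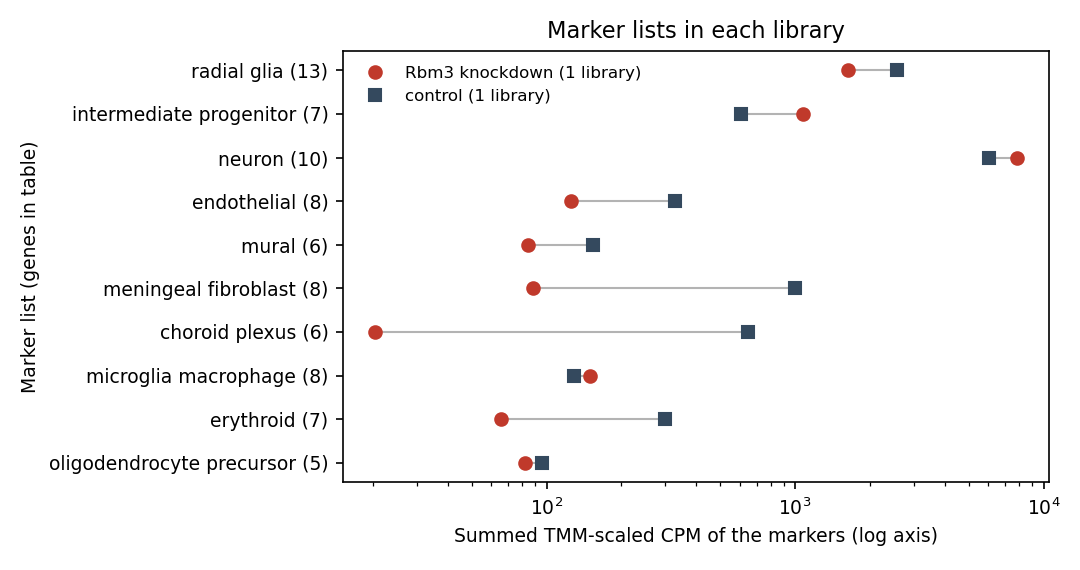
Summed TMM-scaled CPM of each marker list on a log axis, in the Rbm3 knockdown library (circles) and the control library (squares). The widest gaps are those of choroid plexus markers (20.4 CPM in the knockdown and 647 CPM in the control library) and meningeal fibroblast markers (88.6 CPM in the knockdown and 1002 CPM in the control library).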

How the data were processed

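RNA was sequenced from 1 Rbm3 knockdown library and 1 control library, each from 100 ng of total RNA per the labels' protocols. The submitters' processing notes name TopHat2 2.0.12, Bowtie 1.0.1 and HTSeq 0.6.0, but no source used here gives the genome build or the strand setting. The authors' deposited table holds raw read counts and RPKM values per gene, per the file headers. Its log2 fold change, log2 average CPM, p-value and FDR columns are the authors' own comparison, per the file headers, whose test is not stated. Where the knockdown library had under 10 reads, the control library had 18 or more, so low genes are not all listed and column totals are lower bounds of depth.

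TMM factors, computed with edgeR 4.0.16, were 0.963 for the knockdown and 1.04 for the control library. Log2 ratios used a pseudocount of 0.5 CPM, which understates differences of genes with few reads, and fold values and their intervals used none. Genes averaging 5 CPM or more over both libraries were called measured, and all 10 members passed. A gene was called higher or lower past 2-fold as a rule of size. No test was run, since there are no replicates. The members and lists were chosen with earlier results of these data known. Named genes were the members, Rbm3, up to 4 genes past 2-fold of each pathway list or otherwise its most abundant, and up to 2 most abundant markers of each list. Fgf11, Fgf13, Fgf14, Fgf15, Fgfr2, Fgfr3, Mapk3, Dusp2, Dusp5, Dusp7, Il17rd, Ier2, Ier5, Jun, Fosl2, Ccnd1 and Myc were chosen after their values were seen. So were Fgf3, Fgf7, Fgf9, Fgf17, Fgf18, Fgf20, Shc1, Ets1, Ets2, Erf and Mrc1. A gene that the rule takes is not reported here. Alternatives were 3 scalings (1 from DESeq2 1.42.0), 2 pseudocounts, 3 CPM minimums, 2 fold lines, the authors' log2 fold change and a length correction (lowess, span 0.3). The calculation was tested on simulated data.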

Additional observations from a re-analysis of the deposited data

How the results depend on the processing

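Dusp1 was called higher under each of 12 alternatives. At its mean of 87.4 CPM, the 3 CPM minimums and the 1.5-fold line could not have changed that call. Its log2 ratio under the 7 alternatives that change ratios lay between 1.55 and 1.75, and it also passed the 3-fold line. Over those 7, Dusp6 ranged from 0.58 to 0.76 and Etv4 from -0.73 to -0.59. The count of members past 2-fold higher was 2 with the length correction, which added Dusp4, and 3 at the 1.5-fold line, where 1 was lower. The median of the members was 0.013 with column totals and 0.027 with upper-quartile factors, which shifted all genes down alike, and 0.20 with a minimum of 10 CPM, which left out Spry4 and Etv4. Genes of the pathway lists numbered 6 higher and 3 lower past 2-fold. At the 1.5-fold line they numbered 17 higher and 12 lower, 5 were lower with column totals and 5 with upper-quartile factors, and 0 were lower at the 3-fold line. Over all measured genes, 259 were higher and 547 lower. Those numbers were 506 and 1384 with no CPM minimum, 429 and 1176 with a minimum of 1 CPM, 1108 and 1504 at the 1.5-fold line, and 59 and 185 at the 3-fold line, and 326 were lower with a minimum of 10 CPM. No paired analysis was possible because each group has 1 library. Depth limits Spry4 and Etv4 most, at 80 and 83 reads in the knockdown library against 114 and 151 in the control library.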
